A study of Mus musculus with 2 samples.

Results

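Claudins were followed across the epithelial and vascular cells of the mouse cervix, with Cldn10 as the gene that differed most between 2 hormone states. The set held 8 claudin genes, Cldn1, Cldn3, Cldn4, Cldn5, Cldn7, Cldn8, Cldn10 and Cldn23, out of 31053 genes in the deposited count tables, and all 8 were found there by symbol. They were chosen by their measured levels in basal, suprabasal, luminal and endothelial cells of these same libraries, so the values below are descriptions and no test is given for them.

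The data were single-cell RNA counts from the cervix of ovariectomised C57BL6/129 female mice. All mice were 7 to 8 weeks old, lost their ovaries by surgery and then recovered for 2 weeks. The control library came from 9 pooled mice left untreated for the 15 days of the experiment. The progesterone library came from 9 pooled mice that were first injected under the skin with estradiol (E2) in corn oil, 100 µg daily on 2 days. They then carried a progesterone (P4) pellet of 25 mg, a 21-day form releasing near 1 mg daily. Every progesterone mouse had thus also received E2, corn oil and a pellet, so those and progesterone cannot be told apart. The cervix was taken from under the transition zone and cleared of vagina, and cells were freed with a cold-active protease for 60 min at 4 °C. Each group was 1 library, so the differences have no replicate check, and each 95% interval covers the error of counting molecules only.

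There were 5368 barcodes and 21658684 UMIs (unique molecular identifiers, each marking a captured RNA molecule) in control, and 10853 barcodes and 44811069 UMIs with progesterone. After filters on quality and doublets, 4579 control and 8541 progesterone cells remained. The libraries had 19 barcodes in common, 12 of them among these cells. Clusters were named from marker genes: basal squamous cells numbered 1362 in control and 2896 with progesterone, suprabasal squamous cells 1399 and 360, luminal cells 210 and 1872, and endothelial cells 45 and 62. Another 914 control and 2215 progesterone cells lay in clusters that met no name. All 9 luminal markers and all 8 blood endothelial markers were detected in the classes named for them in both libraries. The luminal markers were also detected in basal and suprabasal cells of both libraries, so detection does not set luminal cells apart. Lor, a suprabasal marker, had 0 UMIs in progesterone suprabasal cells. The 8 basal markers summed to 20027 CPM (defined below) there against 13237 in progesterone basal cells. In control, suprabasal cells had 29672.5 and basal cells 32054.6. Krt5, Krt14 and Itga6 were higher in progesterone suprabasal than basal cells, and the other basal markers were lower. Claudins and other junction genes took no part in the clustering.

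Different clusters supplied most of a class in each library. Luminal cells were mainly cluster 14 in control (201 of 210 cells) and clusters 4 and 5 with progesterone (941 and 865 of 1872 cells). Suprabasal cells were mainly clusters 3 and 11 in control (956 and 362 of 1399 cells) and cluster 9 with progesterone (320 of 360 cells). Cluster 3 was named from only 3 suprabasal markers, with none among its top genes, and luminal markers came next. Basal cells were mainly cluster 7 in control (707 of 1362 cells) and cluster 0 with progesterone (2443 of 2896 cells). Class values are therefore set, for some genes and classes but not all, beside values within clusters that both libraries share. Levels are CPM, UMIs of a gene relative to all UMIs of the class, and 3′ counting gives 1 UMI per molecule whatever the transcript's length.

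Claudins are membrane proteins with several passes through the membrane that join neighbouring cells in tight junction strands. Some, such as claudins 3, 4 and 5, seal the space between cells, while others, such as claudins 2 and 10, form channels that let ions pass along that space. In the reproductive tract, the epithelium and its junctions are under the control of ovarian hormones.

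Cldn10 spans chr14:118787908-118875489 on the plus strand of GRCm38, the build of mm10, which the submitters' processing notes name. The annotation gives it 3 coding transcripts of 4 to 5 exons, from an upstream pair of starts and a downstream start, with nearby 3′ ends. Counting at the 3′ end cannot tell these transcripts apart, so the counts below sum over them. Because these starts matter for which form is made, windows at RefSeq starts (GRCm38.p6, 250 bases before to 50 after) are shown for both. Those of Cldn3 and Cldn4, which lie 39280 bases apart in opposite directions, are shown too. The RefSeq starts of Cldn10 differ from those of the annotation. Its downstream transcript there starts at base 118854732, so most of the downstream window lies inside that transcript. Capitals mark matches, on either strand, to the GC box GGGCGG and the E-box CACCTG.

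Cldn10 upstream start, chr14:118787621-118787920, plus strand: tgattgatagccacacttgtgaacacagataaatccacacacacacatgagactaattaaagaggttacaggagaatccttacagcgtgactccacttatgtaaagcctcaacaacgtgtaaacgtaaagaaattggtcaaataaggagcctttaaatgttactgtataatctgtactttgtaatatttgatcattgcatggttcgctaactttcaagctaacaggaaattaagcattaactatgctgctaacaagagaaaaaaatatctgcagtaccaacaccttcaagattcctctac
Cldn10 downstream start, chr14:118854700-118854999, plus strand: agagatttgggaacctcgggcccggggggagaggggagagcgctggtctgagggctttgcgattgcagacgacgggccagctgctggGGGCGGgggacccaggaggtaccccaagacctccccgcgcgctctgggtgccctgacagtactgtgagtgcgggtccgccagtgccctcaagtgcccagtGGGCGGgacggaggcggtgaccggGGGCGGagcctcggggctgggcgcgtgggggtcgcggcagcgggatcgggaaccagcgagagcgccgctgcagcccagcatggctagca
Cldn3 start, chr5:134985964-134986263, plus strand: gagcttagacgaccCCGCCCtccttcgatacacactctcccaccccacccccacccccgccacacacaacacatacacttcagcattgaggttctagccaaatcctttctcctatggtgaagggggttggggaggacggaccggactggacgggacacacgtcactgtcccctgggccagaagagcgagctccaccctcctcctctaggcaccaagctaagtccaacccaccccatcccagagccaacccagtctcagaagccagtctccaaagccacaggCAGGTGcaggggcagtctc
Cldn4 start, chr5:134946885-134947184, minus strand: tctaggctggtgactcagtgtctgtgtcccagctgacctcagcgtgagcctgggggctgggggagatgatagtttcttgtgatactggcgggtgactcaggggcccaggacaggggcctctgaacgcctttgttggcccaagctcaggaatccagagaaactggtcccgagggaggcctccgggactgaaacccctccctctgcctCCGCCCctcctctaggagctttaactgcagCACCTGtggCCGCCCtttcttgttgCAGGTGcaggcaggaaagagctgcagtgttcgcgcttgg

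The windows at the 2 Cldn10 starts were unlike in base composition. The upstream window was 36% G and C and held none of the 5 motifs searched. The downstream window was 72% G and C and held 3 GC boxes, all past the start of the annotated downstream transcript. The Cldn3 window held 1 GC box and 1 E-box, and the Cldn4 window held 2 of each. Of 32851 windows of this length, 35.7% held a GC box and 20.2% held this E-box. The other motifs searched on both strands were AGAACA (a steroid receptor core, in 19.0% of windows), AACNNGTT (grainyhead-like, in 4.20%) and TATAAA (in 13.6%), and none of them was in these 4 windows. No motif overlapped another in them. A match of letters is a description only, and the counts do not bear on which start was used. Windows were matched for 6 of the 8 genes.

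Cldn10, which forms ion-selective channels between cells, was the gene of these 8 that differed most between the libraries. Over all analysed cells it had 55 UMIs in control (2.73 CPM) and 4848 with progesterone (127 CPM). Luminal cells held 58.2% of its UMIs in control and 56.5% with progesterone, and basal cells held 23.6% and 24.7%. Suprabasal cells held 10.9% in control and 1.18% with progesterone. These shares depend on how many cells each class had.

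Cells named luminal came mainly from different clusters in each library, so their ratio does not compare 1 cell type. In these luminal cells Cldn10 was at 43.7 CPM in control (95% interval 29.9 to 61.7, 32 UMIs) and at 299 with progesterone (288 to 310, 2741 UMIs). The ratio was 6.84 (4.83 to 10.0), a log2 value of 2.75. It moved with the grouping of the cells, to a log2 value of 5.40 when each library was clustered apart, 4.43 when cells were sorted by keratins alone and 4.44 when the unnamed cluster 13 was counted as luminal. In basal cells, the dividing layer on the basement membrane, it was at 2.02 CPM in control (1.08 to 3.45, 13 UMIs) and at 85.5 with progesterone (80.7 to 90.5, 1197 UMIs), a ratio of 42.3 (24.7 to 79.8). In suprabasal cells, the differentiating layers above them, it was at 0.690 (0.253 to 1.5, 6 UMIs) and 20.2 (15.3 to 26.1, 57 UMIs), a ratio of 29.2 (12.6 to 83.0). Endothelial cells had 0 Cldn10 UMIs in both libraries, which allows up to 43.2 CPM in control and 20.9 with progesterone. The order of levels was luminal, basal, suprabasal in both libraries, and no neighbours in that order had overlapping intervals with progesterone. In control the basal and suprabasal intervals overlapped.

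**Figure D1:**
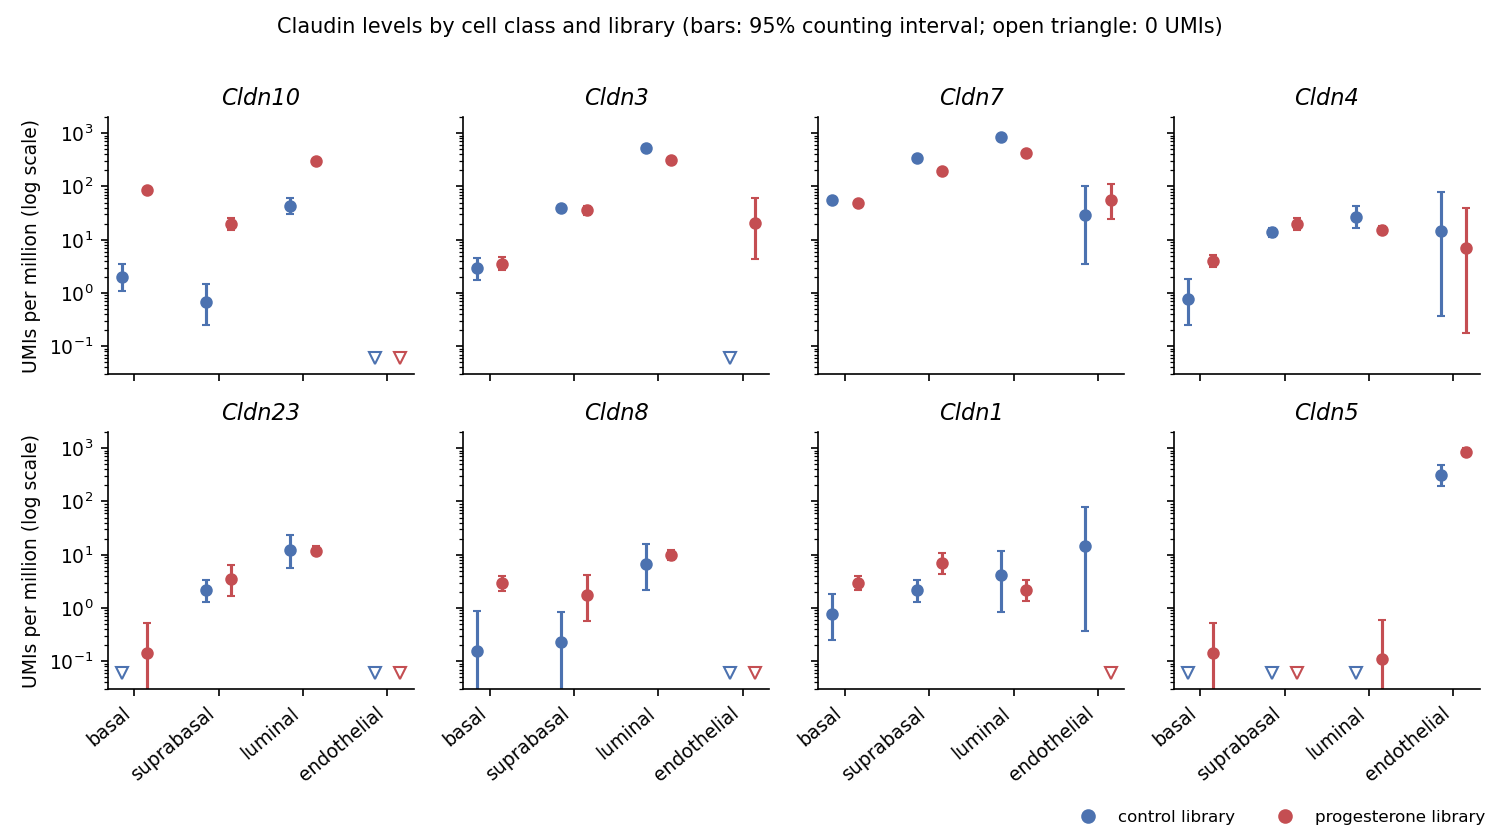
Level of each claudin (CPM, log scale) in basal, suprabasal, luminal and endothelial cells of the control and the progesterone library, with bars for the 95% counting interval and open triangles for 0 UMIs. Cldn10 is at 43.7 in control and 299 with progesterone in luminal cells and at 2.02 and 85.5 in basal cells, while Cldn5 is counted almost only in endothelial cells.

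The same direction was seen within clusters. Cluster 14, the luminal cluster with cells in both libraries and led by Psca, had 44.4 CPM of Cldn10 in 201 control cells and 578 in 27 progesterone cells, a ratio of 13.0 (8.31 to 20.8). Among luminal clusters of the progesterone library, Cldn10 was at 353 in cluster 4, which was led by Clca1 and Tff1, and at 208 in cluster 5, led by Agr2 and Muc5b. It was at 704 in cluster 22, a group of 39 cells led by Prap1. The pair of luminal clusters with more Muc5b RNA had less Cldn10. Muc5b, a gel-forming mucin, was at 10835 CPM in cluster 5, 5887 in cluster 4, 456 in cluster 22 and 405 in the progesterone cells of cluster 14.

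Among basal clusters, cluster 0 had 6.03 CPM of Cldn10 in control and 93.96 with progesterone, a ratio of 15.6 (6.07 to 57.3). Cluster 7 had 1.36 and 22.0, a ratio of 16.2 (4.67 to 62.9). Cluster 10, one of the cycling groups led by Top2a and Mki67, had 2.03 and 60.0, a ratio of 29.6 (11.1 to 112). The other cycling group, cluster 12, had 0 UMIs in control and 64 with progesterone (53.0 CPM), at least 2.17-fold higher when 3 counts are set for control. Cldn10 was therefore higher with progesterone in each basal cluster, cycling or not. With progesterone only cluster 0 lay above the 62.5 CPM of erythrocytes, a class that should lack Cldn10. Clusters 7, 10 and 12 did not, and what part of their counts was free RNA, described below, was not tested. Cluster 9, the suprabasal cluster shared by both libraries, had 1 control UMI (1.95 CPM) and 22.2 CPM with progesterone, a ratio of 11.4 (1.96 to 458). Cluster 3, the suprabasal cluster led by Sprr2f and Sprr2d, had almost none, with 4 UMIs in 956 control cells and 1 in 40 progesterone cells.

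Across the 18 clusters with at least 20 cells in both libraries, Cldn10 was higher with progesterone in 14, lower in 1 and at 0 UMIs in both libraries in 3. The interval of the ratio lay above 1 in 10 of them. Those higher included the neutrophil, macrophage, erythrocyte and fibroblast clusters, which should lack Cldn10. Macrophages had 0 control and 50 progesterone UMIs and erythrocytes 0 and 46, both with intervals above 1. The lower one was cluster 13, an unnamed group with luminal and neutrophil markers, with 2 control UMIs and none with progesterone. The clusters at 0 were the endothelial one and a pair of unnamed immune groups.

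**Figure D2:**
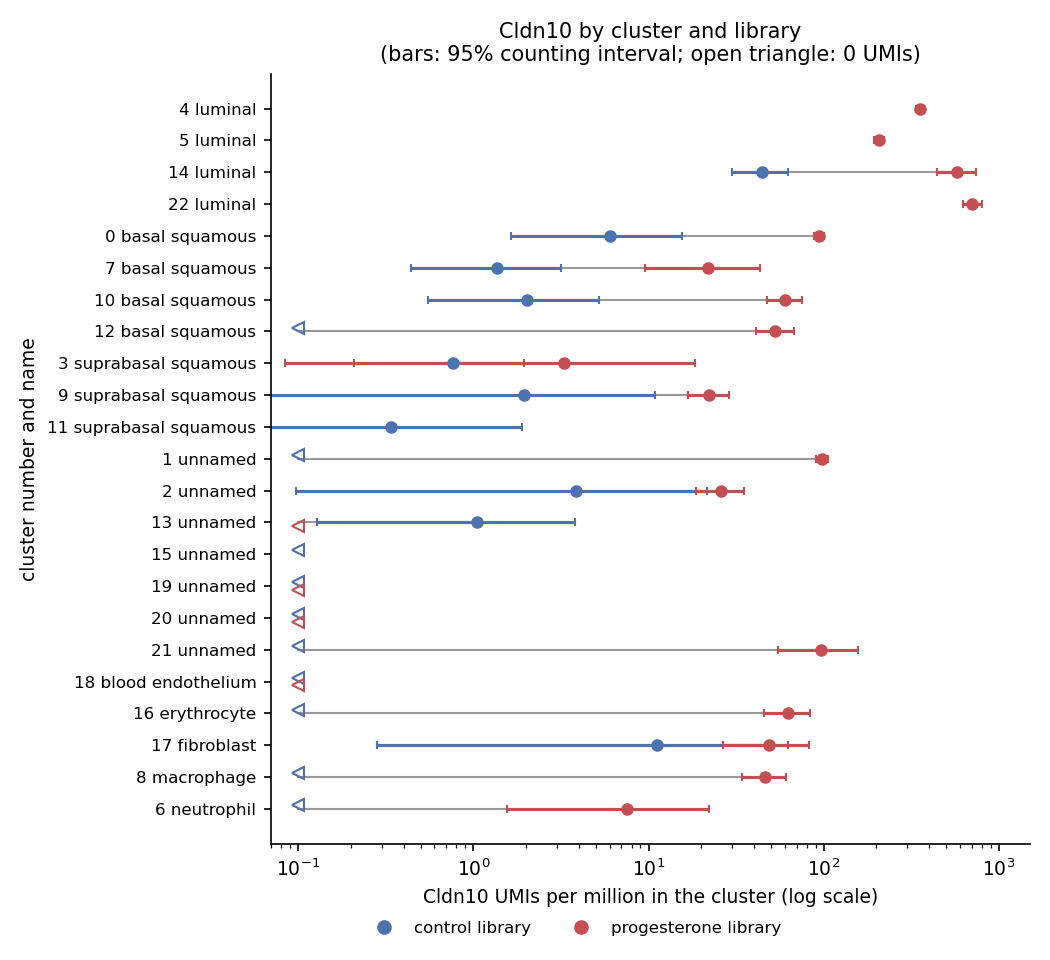
Cldn10 level (CPM, log scale) in each cluster with at least 20 cells of a library, control in blue and progesterone in red, with bars for the 95% counting interval, lines joining the libraries and open triangles for 0 UMIs. The progesterone points of the basal clusters lie between 22.0 and 93.96, each above its control point, and those of the luminal clusters lie between 208 and 704.

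Free RNA in droplets gives counts to cells that do not make a gene, so Cldn10 was read beside classes that should lack it. With progesterone, Cldn10 was at 7.53 CPM in neutrophils (3 UMIs), 46.3 in macrophages (34.4 to 61.0), 45.4 in fibroblasts (26.9 to 71.7) and 62.5 in erythrocytes (45.8 to 83.4). The basal level of 85.5 lay above these levels, though its interval overlapped that of erythrocytes, and the suprabasal level of 20.2 lay below those of the last 3. The macrophages of that library also held 1876 CPM of Krt5, a keratin of squamous cells, against 309 in control. They had 2.47 Cldn10 UMIs per 100 Krt5 UMIs (1.83 to 3.27), near the 3.25 (3.06 to 3.44) of basal cells. Fibroblasts had 7.09 (4.13 to 11.4) and erythrocytes 4.85 (3.52 to 6.52), both above basal cells, and neutrophils had 1.36 (0.279 to 4.04).

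Basal cells did not hold Cldn10 and Muc5b in the ratio found in luminal cells. With progesterone there were 146 Cldn10 UMIs per 100 Muc5b UMIs in basal cells (133 to 160), 3.74 in luminal cells (3.6 to 3.88) and 0 of 147 Muc5b UMIs in endothelial cells. Other classes that should lack Cldn10 had 75.0 in fibroblasts (38.4 to 144), 32.3 in macrophages (23.0 to 44.6), 10.7 in erythrocytes (7.71 to 14.5) and 3.0 in neutrophils (0.608 to 9.02). A ratio above the luminal one was thus not particular to basal cells, and the fibroblast interval overlapped the basal one. The 9 luminal markers summed to 684 CPM in control basal cells and to 1228 in progesterone ones, against 14141 and 7628 in luminal cells. In basal cells without any UMI of 8 luminal genes (Olfm4, Muc5b, Spdef, Agr2, Clca1, Pigr, Krt8 and Krt18), a set chosen after these values were seen, Cldn10 was at 1.53 CPM in 825 control cells (0.562 to 3.33) and at 69.8 in 419 progesterone cells (57.5 to 84.0). The libraries differed there as in all basal cells. The progesterone interval of this subset overlapped those of macrophages, fibroblasts and erythrocytes. Leaving out cells with luminal RNA does not remove free Cldn10 RNA, so its part in this subset was not tested. The progesterone cells kept had a median of 3577 UMIs, against 4478 in all basal cells. In suprabasal cells the same subset held 21 progesterone cells with 0 Cldn10 UMIs, which is too few to set beside the 20.2 of the class.

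Cldn10 UMIs were spread over many basal cells. Of 2896 progesterone basal cells, 717 had at least 1 Cldn10 UMI, no cell had more than 7, and the 20 cells with 5 or more held 8.86% of the UMIs. In control, 13 basal cells had 1 each.

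For shares of cells, each cell was thinned at random to 2000 UMIs, and shallower cells were left out. The share of luminal cells with a Cldn10 UMI was 5.48% of 146 control cells (2.40 to 10.5) and 35.0% of 1601 progesterone cells (32.7 to 37.4), with 64 and 271 cells left out. Among basal cells the shares were 0.294% of 1020 (0.0607 to 0.857) and 13.9% of 2670 (12.6 to 15.3), with 342 and 226 left out. Among suprabasal cells they were 0.317% of 1260 (0.0866 to 0.811) and 3.12% of 352 (1.57 to 5.52), with 139 and 8 left out. Unthinned, the shares were 10.5% and 47.0% of luminal, 0.954% and 24.8% of basal, and 0.429% and 9.72% of suprabasal cells.

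Macrophages, which should lack Cldn10, gave 0 of 57 thinned cells in control, which allows up to 5.26%, and 10.0% of 200 with progesterone (6.22 to 15.0), with 134 and 216 left out. Their median depth was 1467 and 1846.5 UMIs, against 4096 and 4478 in basal cells, 5960 and 7504 in suprabasal cells and 2735.5 and 4772.5 in luminal cells. The suprabasal share with progesterone lay below the macrophage share and is not read as expression, and neither is the suprabasal ratio of 29.2. These macrophages held Krt5 RNA, and what brought Cldn10 to either class was not tested. The basal share lay above it, with overlapping intervals, and the luminal share lay far above both.

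**Figure D3:**
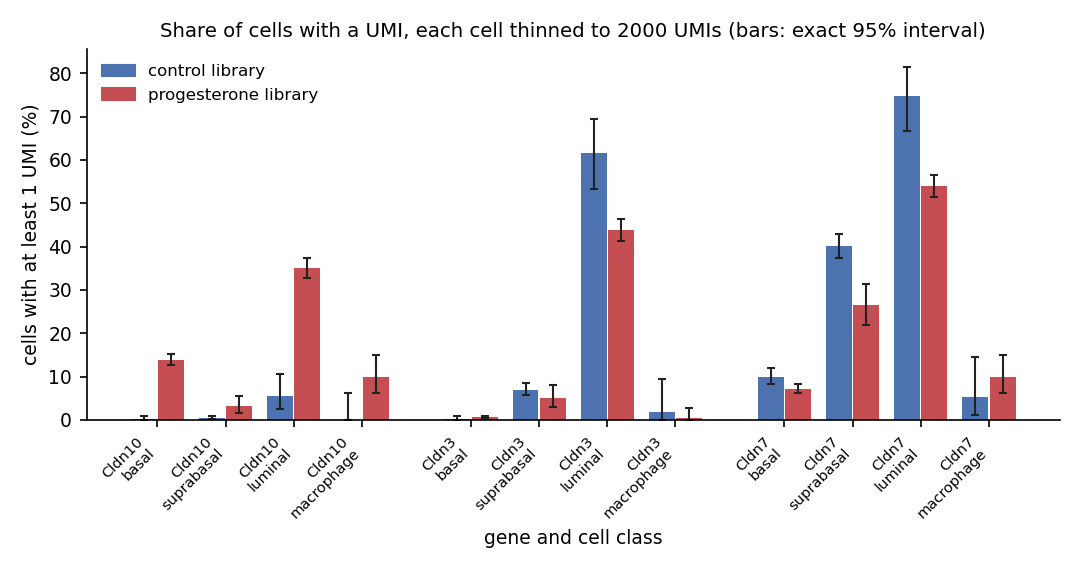
Share of cells (%) with at least 1 UMI of Cldn10, Cldn3 or Cldn7 after thinning to 2000 UMIs, by class and library, with exact 95% intervals as bars. Cldn10 goes from 5.48% to 35.0% of luminal cells and from 0.294% to 13.9% of basal cells, while Cldn3 goes from 61.6% to 43.8% of luminal cells.

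Within the luminal cells of the progesterone library, Cldn10 was found less among cells with mucin RNA. It was seen in 31.6% of 1441 thinned cells with a Muc5b UMI (29.2 to 34.0) and in 66.3% of 160 cells without one (58.4 to 73.5). It was seen in 28.0% of 807 cells with a UMI of Olfm4, a secreted glycoprotein (24.9 to 31.2), and in 42.2% of 794 cells without one (38.7 to 45.7). With Cldn3 it went the other way, 38.7% of 702 cells with a Cldn3 UMI (35.1 to 42.5) and 32.1% of 899 without (29.1 to 35.3). Cells are not replicates, and these intervals cover counting only. A luminal cell with all of Cldn3, Cldn7 and Cldn10 was seen in 10.4% of progesterone and 3.42% of control thinned cells. In control, 44 thinned luminal cells had a Muc5b UMI and 102 had none.

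The genes whose levels followed Cldn10 most closely, by Pearson's r of log2 levels over 41 groups (clusters by library, at least 20 cells each, 10 CPM added), were Ces1d, a carboxylesterase (r = 0.906), Tmem213 (0.849), F3, which is tissue factor (0.844), Mboat2, an acyltransferase (0.831) and Med24, a subunit of Mediator (0.820). Among the other claudins, Cldn8 came closest to it (0.790), ahead of Cldn3 (0.422) and Cldn7 (0.335). The groups share libraries and depth, and r is given as a description over 11828 genes.

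Cldn3 and Cldn7 were the claudins of luminal cells in both libraries, and neither was higher there with progesterone. Cldn3 is a sealing claudin encoded by a single exon at chr5:134986214-134987472, and Cldn7, which binds the adhesion protein Epcam, lies at chr11:69964779-69967885 with 5 coding transcripts. In luminal cells Cldn3 was at 537 CPM in control (485 to 593) and at 316 with progesterone (305 to 328), a ratio of 0.589 (0.530 to 0.656). Cldn7 was at 839 in control (774 to 908) and at 424 with progesterone (411 to 437), a ratio of 0.505 (0.464 to 0.551). Both ratios lay short of 2-fold, the size used here to call a gene higher or lower.

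Within cluster 14 the ratio of Cldn3 was 0.628 (0.433 to 0.885) and that of Cldn7 was 0.549 (0.400 to 0.737), close to those of the class. After thinning, Cldn3 was seen in 61.6% of control and 43.8% of progesterone luminal cells, and Cldn7 in 74.7% and 54.0%, against 1.75% and 0.500%, and 5.26% and 10.0%, of macrophages. Unthinned, the luminal shares were 69.5% and 63.5% for Cldn3 and 76.7% and 73.0% for Cldn7. In control luminal cells Cldn10 was far below Cldn3, at 43.7 against 537 CPM, and with progesterone the levels were 299 and 316 CPM. Luminal cells of the control library also held RNA of squamous marker genes. The 8 basal squamous markers summed to 8202 CPM in them against 1363 with progesterone. The 8 suprabasal markers summed to 5392 against 1385, where control suprabasal cells had 4371. The source of this RNA and its part in the claudin values were not tested.

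Cldn3 set luminal apart from basal cells by more than Cldn7 did. Basal cells had 2.95 CPM of Cldn3 in control (19 UMIs) and 3.57 with progesterone (50 UMIs), so luminal cells were 182-fold higher in control (115 to 306) and 88.6-fold higher with progesterone (67.0 to 120). Cldn7 was also counted in basal cells, at 56.4 in control (50.7 to 62.5) and 49.0 with progesterone (45.4 to 52.8). In control and with progesterone it was at 27.8 and 52.8 in macrophages, 66.9 and 32.8 in fibroblasts and 399 and 70.7 in erythrocytes. Cldn3 was at 6.48 in progesterone macrophages (7 UMIs), above its basal level there. What part of these basal levels was free RNA was not tested. Luminal cells had 14.9-fold more Cldn7 than basal cells in control (13.1 to 17.0) and 8.65-fold more with progesterone (7.97 to 9.40). In basal cells the Cldn7 ratio between libraries was 0.869 (0.764 to 0.990), but it was 2.40 in cluster 7, 1.93 in cluster 10, 2.97 in cluster 12 and 0.768 in cluster 0.

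Suprabasal values of Cldn3 and Cldn7 turned on cluster 3. The class had 338 CPM of Cldn7 in control and 196 with progesterone, and 39.7 and 35.7 of Cldn3. In control, cluster 3 had 538 CPM of Cldn7 and 64.1 CPM of Cldn3, whereas cluster 11, led by Krt16 and Krt6b, had 18.3 and 1.35. Cluster 9, led by Krt10, had 144 CPM of Cldn7 in control and 148 with progesterone, a ratio of 1.02 (0.797 to 1.33). In cluster 3, with 40 progesterone cells, the Cldn7 ratio was 1.11 (0.953 to 1.30). The Cldn3 ratio was 0.901 (0.715 to 1.13) in the class, but 3.41 (2.58 to 4.45) in cluster 3 and 1.19 (0.494 to 3.45) in cluster 9. Suprabasal cells were 5.99-fold above basal cells for Cldn7 in control and 13.4-fold for Cldn3, but both were below them in some other groupings of the cells. On the log2 scale, with 0.5 UMI added to each count, Cldn7 went from 2.58 to -1.21 and Cldn3 from 3.71 to -0.73 when cells were sorted by keratins alone. The class ratio between libraries for Cldn7, 0.580, likewise went from -0.78 on the log2 scale to 2.54 when each library was clustered apart.

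The highest Cldn7 level of all was in cluster 13, unnamed because it held both luminal and neutrophil markers, with 1319 CPM in 276 control cells and 926 in 34 progesterone cells. Cldn3 was at 506 and 601 there. Cxcl17, Krt19 and Muc1 followed Cldn3 most closely (r = 0.933, 0.923 and 0.885), and Elf3, Srd5a1 and Pdzk1ip1 followed Cldn7 (0.927, 0.899 and 0.881). Krt19 is a keratin of simple epithelia, Muc1 a membrane mucin and Elf3 an epithelial transcription factor. Krt19 and Elf3 were also luminal markers in naming clusters. Cldn3 and Cldn7 followed each other with r = 0.845.

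Cldn4, a sealing claudin at chr5:134945119-134946934, and Cldn23, at chr8:35824712-35826559, were low in the named classes and highest in unnamed clusters. Cldn4 was at 27.3 CPM in control luminal cells (20 UMIs) and 15.3 with progesterone (140 UMIs), a ratio of 0.559 (0.348 to 0.943). It was at 13.8 and 19.8 in suprabasal cells, a ratio of 1.44 (1.03 to 1.99), and at 0.777 (5 UMIs) and 4.07 (57 UMIs) in basal cells, a ratio of 5.24 (2.12 to 16.8). Within luminal cluster 14 the Cldn4 ratio was 1.01 (0.192 to 3.41), unlike that of the class. Within suprabasal clusters it was 2.97 (1.69 to 4.92) in cluster 3 and 3.86 (0.998 to 33.1) in cluster 9. With cells sorted by keratins alone the basal ratio was -0.98 on the log2 scale, below 0. Cldn4 was at 5.56 CPM in progesterone macrophages (6 UMIs), above its basal level there, and the part of free RNA in it was not tested. Its highest levels were 388 (control) and 308 (progesterone) in cluster 21, which interferon genes such as Ifit3 and Isg15 led and whose top genes included Cldn4, and 81.7 and 81.8 in cluster 13.

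Cldn23 was at 12.3 in luminal cells in control (9 UMIs) and 12 with progesterone (110 UMIs), a ratio of 0.976 (0.496 to 2.19). It was at 2.18 and 3.54 in suprabasal cells and at 0 and 0.143 in basal cells. In cluster 14 its ratio was 4.49 (1.31 to 14.1). Trpm6 (r = 0.920), 9130008F23Rik (0.865) and Eps8l1 (0.851) followed Cldn23 most closely. Gm14137 (0.857), Atg9b (0.852) and Cldn23 itself (0.839) followed Cldn4.

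Cldn8 and Cldn1 were counted in few cells. Cldn8, a claudin known from the distal nephron, at chr16:88560828-88563183, was at 6.83 CPM in luminal cells in control (5 UMIs) and 10.0 with progesterone (92 UMIs), a ratio of 1.47 (0.607 to 4.63). In basal cells it had 1 UMI in control (0.155 CPM) and 41 with progesterone (2.93), a ratio of 18.9 (3.20 to 763). Ppargc1a, A830008E24Rik and Gcnt3 followed it most closely (r = 0.841, 0.830 and 0.807).

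Cldn1, a claudin of the barrier of the epidermis, lies at chr16:26356642-26371841 in 4 exons. Over all analysed cells it was at 4.13 CPM in control and 3.20 with progesterone, and unnamed clusters held 60.2% and 21.3% of its UMIs. Among these, cluster 13 had 25.3 CPM in control (48 UMIs) and 11.7 with progesterone (5 UMIs), a ratio of 0.462 (0.144 to 1.16). In basal cells Cldn1 was at 0.777 in control (5 UMIs) and 3.0 with progesterone (42 UMIs), a ratio of 3.86 (1.53 to 12.5). Within basal cluster 0 the ratio was 1.16 (0.300 to 9.91). In suprabasal cells it was at 2.18 (19 UMIs) and 7.08 (20 UMIs), a ratio of 3.24 (1.64 to 6.42), which was -0.19 on the log2 scale when each library was clustered apart. In luminal cells 3 control UMIs (4.10 CPM) stood against 20 with progesterone (2.18), a ratio of 0.532 (0.158 to 2.80). Macrophages had 6.18 CPM of Cldn1 in control (2 UMIs) and 9.26 with progesterone (10 UMIs), above its level in each of these classes. What part of those levels was free RNA was not tested. Within clusters no interval for Cldn1 or Cldn8 excluded a ratio of 1. Il1a, Cnfn and Psors1c2 followed Cldn1 (r = 0.726, 0.725 and 0.701), the last pair being genes of cornified cells.

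Set beside all genes, 4 of the 6 claudins with at least 20 UMIs in basal cells were at least 2-fold higher with progesterone (Cldn1, Cldn4, Cldn8 and Cldn10), where 10.1% of all genes counted were. In suprabasal cells it was 2 of 6 (Cldn1 and Cldn10) against 6.54%, and in luminal cells 1 of 7 (Cldn10) against 16.3%. None was at least 2-fold lower in these classes, where 6.65%, 5.89% and 7.05% of all genes were. The median log2 ratio of the counted claudins was 2.05 in basal, 0.63 in suprabasal and -0.77 in luminal cells, and that of all genes was 0.03, 0.11 and 0.07. The genes were chosen with this contrast known, so nothing is read from these counts.

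**Figure D4:**
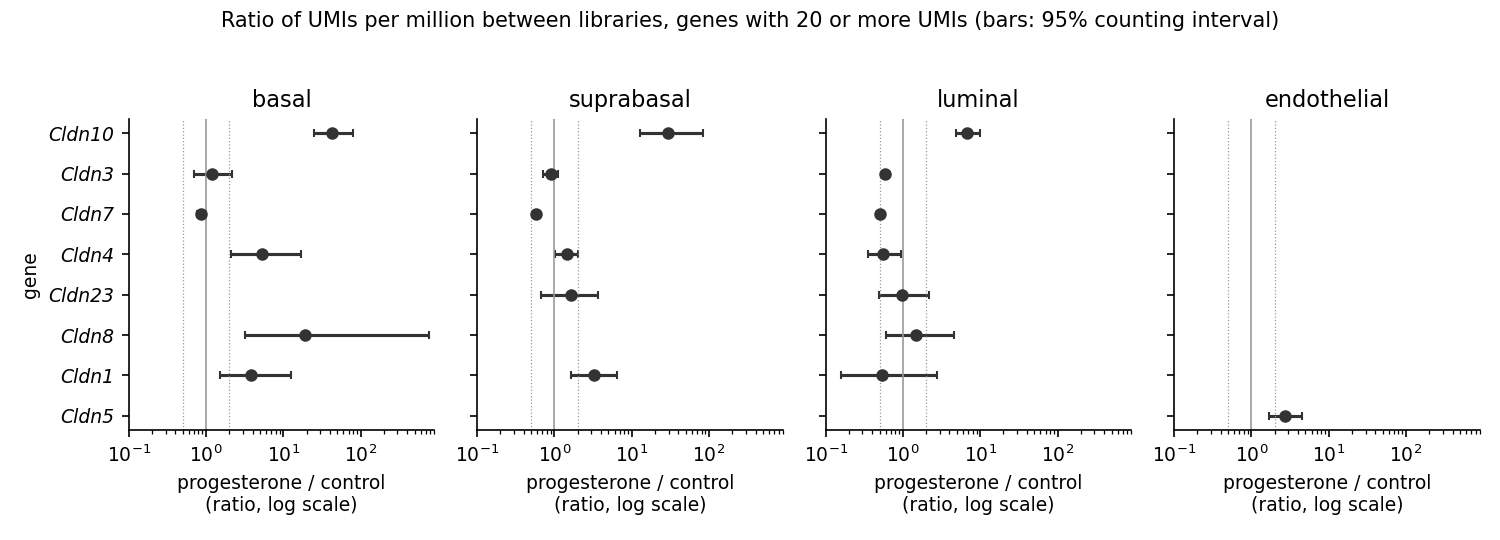
Ratio of CPM, progesterone over control (log scale), for each claudin with at least 20 UMIs in the class, with bars for the 95% counting interval, a solid line at 1 and dotted lines at 2-fold. Cldn10 lies at 42.3, 29.2 and 6.84 in basal, suprabasal and luminal cells, and Cldn3 and Cldn7 lie at 0.589 and 0.505 in luminal cells.

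Between classes of the same library, luminal cells stood at least 2-fold above basal cells for all 4 claudins counted in control (Cldn3, Cldn4, Cldn7 and Cldn10), where 17.8% of genes did. With progesterone they did so for 6 of 7, all but Cldn1, where 19.9% of genes did. For Cldn10 this excess was 21.7-fold in control (11.1 to 45) and 3.50-fold with progesterone (3.27 to 3.75), log2 values of 4.41 and 1.81. The control value was lower under other groupings, 2.27 with libraries clustered apart and 2.65 with cluster 13 as luminal, closer to that with progesterone. Suprabasal cells stood at least 2-fold above basal cells for 4 of 4 counted in control, where 6.98% of genes did, and for 4 of 6 with progesterone, where 5.92% did. Cldn10 was at least 2-fold lower in suprabasal than basal cells with progesterone, as were 15.0% of genes, at a ratio of 0.236 (0.178 to 0.308). Under a stricter filter on cells its log2 value was 0.21 in place of -2.07. Luminal cells stood at least 2-fold above suprabasal cells for 4 of 6 in control, where 18.6% of genes did, and for 5 of 7 with progesterone, where 21.7% did. Cldn1 was lower there with progesterone, as were 5.87% of genes, at a ratio of 0.308 (0.158 to 0.604).

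Cldn5, the sealing claudin of endothelial cells and known from the blood-brain barrier, lies in a single exon at chr16:18776847-18778262. Endothelial cells had 317 CPM of Cldn5 in control (199 to 480, 22 UMIs) and 857 with progesterone (712 to 1023, 123 UMIs), a ratio of 2.70 (1.71 to 4.47). Cldn5 was the 1 claudin with at least 20 UMIs in these cells, where 10.9% of genes were at least 2-fold higher with progesterone and 5.49% lower. The claudin next in these cells was Cldn7, with 2 control and 8 progesterone UMIs. Cldn5 had 0 control UMIs and 3 progesterone UMIs in basal, suprabasal and luminal cells together, and endothelial cells held all 22 of its control UMIs and 93.2% of its progesterone UMIs.

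Few endothelial cells carried the count. Without thinning, Cldn5 was seen in 7 of 45 control cells (15.6%, 6.49 to 29.5) and in 20 of 62 progesterone cells (32.3%, 20.9 to 45.3), at median depths of 1115 and 2084 UMIs. Thinned to 2000 UMIs, only 7 control cells were left, 2 of them with Cldn5, against 9 of 33 with progesterone, so no difference in shares was detectable at this depth. The mean over cells, each weighted alike, gave a log2 ratio of 0.90 in place of 1.41.

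The 8 blood endothelial markers had ratios from 1.05 (Flt1) to 1.54 (Emcn), and there were 7.19 Cldn5 UMIs per 100 of their UMIs in control (4.44 to 11.1) and 15.5 with progesterone (12.7 to 18.8). The adhesion genes Jam2 and Esam had ratios of 2.64 (1.37 to 5.56) and 1.51 (0.859 to 2.78), and Jam3, the last of that list, had 2 UMIs in all. Esam was also counted in basal cells, at a ratio of 2.08 (1.26 to 3.62), and Jam2 in luminal cells, with 21 UMIs, all with progesterone. Lymphatic markers were present in the same cluster, and some had ratios above that of Cldn5. Lyve1 was at 86.5 and 286 CPM, a ratio of 3.30 (1.39 to 9.52), Mmrn1 had a ratio of 2.74 (1.14 to 7.98) and Prox1, with 1 and 7 UMIs, one of 3.38 (0.435 to 153). Ccl21a had a ratio of 1.47 (1.18 to 1.84) and Flt4 of 0.806 (0.330 to 2.09). Krt5 was at 1801 CPM in the control endothelial cells and 62.7 in the progesterone ones, Muc5b at 0 and 1024, and the part of these and of the lymphatic genes in the Cldn5 ratio was not tested. Emcn, Cytl1 and Ccl21a followed Cldn5 most closely (r = 0.972, 0.972 and 0.966), and Emcn was itself a marker used in naming.

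Cldn3 and Cldn7 were at least 2-fold lower in endothelial than in luminal cells of both libraries, and Cldn5 was higher. With progesterone, the ratio was 0.0661 for Cldn3 (0.0136 to 0.193) and 0.132 for Cldn7 (0.0567 to 0.259), and Cldn10 was at least 14.3-fold lower when 3 counts are set for its 0 endothelial UMIs. By point values alone 7 claudins were lower and 1 was higher, where 31.4% and 18.5% of genes were, but Cldn1, Cldn8 and Cldn23 were at 0 UMIs there with luminal levels under the 20.9 CPM that 0 allows, and Cldn4 rested on 1 UMI (ratio 0.456, 0.0115 to 2.58). In control the point values were lower for 3 of 5 and higher for 1, where 29.9% and 12.6% of genes were. The third was Cldn10, whose luminal level of 43.7 CPM is at the 43.2 that 0 endothelial UMIs allow, so no 2-fold difference was detectable there.

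Of the 25 other numbered claudin genes in the files, Cldn22 and Cldn2 reached 100 UMIs in a class. Cldn22 had 41.0 CPM in control luminal cells (30 UMIs) and 184 with progesterone (1691 UMIs), a ratio of 4.50 (3.14 to 6.69), and luminal cells held 94.8% of its progesterone UMIs. It lies inside Wwc2 on the opposite strand, and whether the counting used strand is not given in the sources used here, so reads of these genes may not be told apart. Cldn2, a channel former like Cldn10, had 0 UMIs in control and 116 in progesterone luminal cells (12.7 CPM), at least 3.09-fold higher when 3 counts are set for control. Cldn3 likewise overlaps Wbscr25 on the other strand, and Cldn10 overlaps n-R5s51. Unlike Cldn10, Cldn2 and Cldn22 were nearly absent from basal cells with progesterone, with 1 and 15 UMIs.

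Of 20 other tight junction genes, 2 of 20 counted in basal cells were at least 2-fold higher with progesterone (Ocln and Pard6b), 0 of 19 in suprabasal cells, and 1 in luminal cells (Prkci), where Cgnl1 was lower. Over all genes counted, 10.1% were higher in basal, 6.54% in suprabasal and 16.3% in luminal cells, and 7.05% were lower in luminal cells. Ocln, which encodes occludin, was at 1.86 CPM in control basal cells and 6.36 with progesterone, a ratio of 3.41 (1.86 to 6.85), and its suprabasal ratio was 1.99 (1.35 to 2.93). Cgnl1, a scaffold related to cingulin, was at 163 in control luminal cells and 60.7 with progesterone, a ratio of 0.373 (0.305 to 0.458). Pard3, a polarity protein, had the most UMIs of the list and had ratios of 1.72 in basal, 1.55 in suprabasal and 0.939 in luminal cells. Those of Tjp1, which encodes the scaffold ZO-1, were 1.23, 1.07 and 0.914. Lsr and F11r, genes of tricellular and junctional adhesion, had luminal ratios of 0.940 and 0.786. The list's median log2 ratio was 0.50 in basal, 0.33 in suprabasal and -0.04 in luminal cells, beside 0.03, 0.11 and 0.07 over all genes.

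Of 6 genes for claudin partners and the proteases acting on them, Epcam and Spint2 were at least 2-fold higher with progesterone in basal cells, where 10.1% of all genes were. Spint2, a protease inhibitor, had ratios of 2.79 in basal, 2.71 in suprabasal and 2.00 in luminal cells, the largest of its list in each. Epcam, which holds Cldn7 at the membrane, was at 163 and 333 in basal cells, a ratio of 2.04 (1.91 to 2.18), and at 1245 and 1684 in luminal cells, a ratio of 1.35 (1.26 to 1.45). Spint1 had a luminal ratio of 0.617 (0.519 to 0.736). The list's median was 0.68 in basal and -0.08 in luminal cells on the log2 scale.

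Of 12 genes for transcription factors that act on claudin genes, 7 were counted in basal cells and Grhl1, Grhl3 and Ovol1 were at least 2-fold lower with progesterone, where 6.65% of all genes were. In luminal cells the same 3 of 6 were lower, where 7.05% of genes were, and in suprabasal cells Ovol2 was higher, where 6.54% of genes were. Ovol1 was at 11.3 and 3.14 in basal cells, a ratio of 0.277 (0.186 to 0.408), and Grhl1 at 49.2 and 18.8 in luminal cells, a ratio of 0.381 (0.265 to 0.562). Grhl2, a grainyhead factor, and Snai2, a repressor of epithelial genes, had basal ratios of 1.36 (1.18 to 1.57) and 1.27 (1.11 to 1.46). The suprabasal ratio of Grhl2 was 1.63 (1.32 to 1.99). The list's median log2 ratio was 0.35 in basal and -0.68 in luminal cells.

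Of 6 secretory genes of luminal cells, 3 were at least 2-fold higher there with progesterone (Muc5b, Clca1 and Pigr), where 16.3% of all genes were. Muc5b was at 2787 and 8000 CPM, a ratio of 2.87 (2.75 to 3.0), and Clca1 at 241 and 5117, a ratio of 21.3 (18.3 to 24.8). Agr2 and Olfm4 had luminal ratios of 1.31 (1.25 to 1.36) and 0.885 (0.837 to 0.936). In basal cells all 6 of these genes were at least 2-fold higher with progesterone, where 10.1% of all genes were, with Clca1 at 0 control UMIs and 38.9 CPM with progesterone. Muc5b was there at 1.71 and 58.6 CPM, where Cldn10 was at 2.02 and 85.5. That progesterone level of Muc5b lay below those of classes that should lack it. Endothelial cells had 1024 CPM, erythrocytes 430 of 735499 UMIs, macrophages 155 of 1080021 and neutrophils 100 of 398385. The basal values of these secretory genes are not read as expression, and the part of free RNA in them was not tested. In endothelial cells all 4 of those counted were higher, where 10.9% of genes were, and this too is not read as expression. In suprabasal cells 4 of 6 were higher and 1 was lower, where 6.54% and 5.89% of genes were, with Agr2 at a ratio of 4.92 (3.66 to 6.66). The list's median log2 ratio was 4.08 in basal and 1.19 in luminal cells.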

How the data were processed

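Single-cell RNA was counted in 2 libraries, control and progesterone, with the 10x Genomics 3′ kit, per the labels' protocols. The authors deposited UMI counts for each gene in each barcode as whole numbers with no normalization, made with Cell Ranger 3.0.2 on mm10, per the submitters' processing notes. Every deposited barcode had at least 500 UMIs, and 35 repeated symbols were kept apart by identifier. Gene and transcript positions are from GENCODE mouse release M21, which held 30934 of the 31053 identifiers, and windows are at RefSeq starts.

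Barcodes needed 200 genes or more, with no more than 20% of UMIs mitochondrial. Scrublet in scanpy 1.11.5 scored doublets, and the highest-scoring cells, at a share that grows with the number of cells, were left out (181 in control and 680 with progesterone). Cells of both libraries were clustered together (10000 counts per cell, log scale, 2000 variable genes, 30 components, 15 neighbours, Leiden resolution 1 with leidenalg 0.10.2, seed 1) without mitochondrial, claudin and other junction genes. Clusters were named from markers of 19 classes. A name needed a mean log2 score of 0.75, a lead of 0.5 over the next class and 3 detected markers. These limits were set after clusters had been seen, so other limits give other classes, as the cells of unnamed clusters show.

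Sums of UMIs over the cells of a class in a library gave CPM, with exact Poisson intervals for levels, exact conditional binomial intervals for ratios and exact Clopper-Pearson intervals for shares (scipy 1.17.1), all at 95%. Genes with at least 20 UMIs over the pair compared were counted, and 2-fold is the size for calling a gene higher or lower. Log2 ratios had 0.5 UMI added to each count. Folds against a count of 0 used 3 counts in its place, for each class in each library. With 1 library per group there was no test. The ratio code was tested on simulated data. Background for shares was read in macrophages, since too few neutrophils were left after thinning to 2000 UMIs.

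Members and lists were chosen with earlier results of these data known. Named were all 8 claudins, the genes of each fixed list (tight junction, endothelial junction, partners and proteases, regulators, luminal secretory) with the most UMIs or the largest ratio in a class, other claudins with at least 100 UMIs in a class, and the 5 genes most like Cldn10 and 3 most like each other claudin. Pard6b, Prkci, Grhl3, Ovol2, Pigr and Jam2 in luminal cells were named because a count held them, after their values were seen. Of the genes this rule names, 1 is not reported here. Alternatives were 2 other resolutions, a stricter filter, doublets kept, libraries clustered apart, junction genes kept, a keratin gate on single cells, another denominator, the mean over cells, other depths for thinning and other count minimums. Counting the mixed cluster 13 as luminal was chosen after seeing the data.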

Additional observations from a re-analysis of the deposited data

Results flagged for a closer look

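Cldn10 was also higher with progesterone in clusters that entered no comparison between classes, because their markers gave them no name. In cluster 1, which lay between basal and suprabasal cells, it had 0 UMIs in 126 control cells and 673 UMIs in 1182 progesterone cells (97.9 CPM), at least 10.7-fold higher when 3 counts are set for control. In cluster 2, led by Dapl1 and Adh7, it had 1 UMI in 213 control cells (3.86 CPM) and 42 in 868 progesterone cells (26.0 CPM). The ratio was 6.72, with a counting interval of 1.14 to 272. That progesterone level lay below the 46.3 CPM of macrophages in the same library.

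Cldn23 was higher with progesterone in cluster 13, the group with luminal and neutrophil markers. It was at 31.6 CPM in 276 control cells and 115 CPM in 34 progesterone cells, a ratio of 3.62 (2.43 to 5.37). In the same cluster Cldn4 was at 81.7 and 81.8 CPM.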

How the results depend on the processing

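With 1 library per group, how far pooled mice vary is not known from these counts, and the luminal and endothelial values rest on 210 and 45 control cells. No paired analysis was possible because each group is 1 library. Of 45 ratios past 2-fold, tried in 415 alternative values, 400 kept their direction and 15 did not, the latter in 7 results. Cldn10 stayed higher with progesterone in every alternative run, with log2 ratios from 4.48 to 5.94 in basal, 2.65 to 5.40 in luminal and 3.19 to 6.82 in suprabasal cells. The suprabasal class depended most on the grouping. The causes of these shifts were not tested.

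Shares of analysed cells were, in control and with progesterone, 29.7% and 33.9% basal, 30.6% and 4.21% suprabasal, 4.59% and 21.9% luminal, and 0.983% and 0.726% endothelial. Log2 ratios for Cldn10 were 5.35 (basal), 2.75 (luminal) and 4.77 (suprabasal) for progesterone over control, and 4.41 (control) and 1.81 (progesterone) for luminal over basal cells. Suprabasal over basal log2 ratios were 2.58 for Cldn7, 3.71 for Cldn3 and 4.02 for Cldn4 in control, and 3.32 for Cldn3 and -2.07 for Cldn10 with progesterone.

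At Leiden resolution 2, basal cells were 24.1% and 38.1% and control suprabasal cells 9.35%, and the suprabasal over basal value of Cldn7 in control was -0.41. At resolution 0.5, control cells were 28.0% basal, 8.26% suprabasal and 6.51% luminal, and suprabasal cells with progesterone 0.187%. There the suprabasal over basal values in control were -0.31 for Cldn3 and -0.92 for Cldn7, and the luminal Cldn10 ratio was 3.56.

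Under the stricter filter, control cells were 18.8% basal, 23.7% suprabasal and 5.48% luminal, and progesterone cells 10.3% suprabasal and 19.9% luminal. Cldn10 ratios were 4.48 in basal and 6.82 in suprabasal cells, 3.43 for luminal over basal cells in control, and 0.21 for suprabasal over basal cells with progesterone. With doublets kept, basal cells were 26.3% and 37.7%, suprabasal cells 9.94% and 11.2%, and luminal cells with progesterone 25.4%. Suprabasal over basal values in control were -0.24 for Cldn3 and -0.10 for Cldn7, and the suprabasal Cldn10 ratio was 6.51.

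With libraries clustered apart, basal cells with progesterone were 36.5%, suprabasal cells 8.12% and 19.4%, and luminal cells 20.7% and 23.9%. The suprabasal Cldn1 ratio was -0.19, that of Cldn7 for suprabasal over basal cells in control -1.08, the luminal Cldn10 ratio 5.40, and that of luminal over basal cells in control 2.27. With junction genes kept, basal cells were 25.6% and 36.2%, control suprabasal cells 9.94%, and luminal cells 6.62% and 22.8%. Suprabasal over basal values in control were -0.12 for both Cldn3 and Cldn7, and the luminal Cldn10 ratio was 3.59.

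With the keratin gate, basal cells were 52.7% and 38.3%, suprabasal cells 17.6% and 3.49%, luminal cells 2.78% and 15.8%, and endothelial cells 0.0993% and 0.455%. Suprabasal over basal values in control were -0.73 for Cldn3, -0.36 for Cldn4 and -1.21 for Cldn7, and -0.14 for Cldn3 with progesterone. The basal Cldn4 ratio was -0.98, the Cldn10 ratios 3.19 (suprabasal) and 4.43 (luminal), and luminal over basal Cldn10 with progesterone 1.97. Counting cluster 13 as luminal, which was chosen after seeing the data, gave 10.6% luminal cells in control, a luminal Cldn10 ratio of 4.44 and 2.65 for luminal over basal cells in control. Luminal over basal Cldn10 with progesterone was 1.46 with a denominator without the most abundant genes and 1.52 with the mean over cells.

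Genes at least 2-fold higher and lower with progesterone numbered 1198 and 790 in basal, 696 and 627 in suprabasal, 1810 and 782 in luminal and 174 and 88 in endothelial cells. Without a filter on low counts these were 3469 and 2167, 2102 and 2853, 5261 and 1848, and 3555 and 2838. With at least 100 UMIs they were 603 and 505, 263 and 266, 892 and 364, and 12 and 8.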
